A study of Mus musculus with 2 samples.

Results

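Open chromatin was examined around 4 genes of the Bcl2 family, Bcl2, Bcl2l1, Mcl1 and Bcl2l11, in 1 mouse lymphoma called T6. The tumour arose in an Eμ-myc mouse, whose Myc transgene is switched on in B cells by the Eμ enhancer of the heavy chain locus. It was Arf-/- and Trp53+/+ on the C57/Bl6 strain, and its cells came untreated from lymph nodes pressed through a strainer with no purification step, so that the list may hold sites of other lymph node cells. DNaseI cuts DNA that is free of nucleosomes, and the deposited list gives the position of each accessible site, with no score, height or read count. A site was a member if at least 1 base of it lay within 50 kb of the mm9 position of one of the genes. By this rule 77 of the 53593 sites in the list were members: 14 at Bcl2, 10 at Bcl2l1, 30 at Mcl1 and 23 at Bcl2l11. An input library of the same tumour belongs to the series and was not analysed here. There was 1 library, its depth was unknown and it had no replicate, so no test between genes or conditions was possible. Intervals below are exact Poisson intervals for counts, exact (Clopper-Pearson) binomial intervals for shares and order-statistic intervals for medians, all at 95%. They cover counting error only and treat sites as independent, which neighbouring sites are not.

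Proteins of the Bcl2 family decide at the outer membrane of the mitochondrion whether a cell dies by apoptosis. Bcl2, Bcl2l1 (which encodes Bcl-xL) and Mcl1 encode guardians of survival, which bind and hold the killer proteins Bax and Bak. Bcl2l11 encodes Bim, a BH3-only protein that occupies the guardians and so releases the killers. In B cells Bim removes self-reactive and cytokine-deprived cells, Mcl1 is a short-lived protein needed throughout B cell development, and Myc-driven B cell lymphomas are known to be held back by Bim and promoted by Bcl2. An accessible site shows where proteins could reach the DNA, at a promoter or a distal element, and is not a measure of transcription. The list therefore says nothing on the amount of these proteins or their RNA in the tumour.

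The promoters are shown first, because each gene start, as placed by the mm9 positions used here, lay in or within 200 bp of a site. The later gene models of Mcl1 and Bcl2l1 are longer than these positions, and a start moved outward was not tried. The sequences are from RefSeq on GRCm38.p6, a later build than the mm9 of the sites, so they were matched by gene symbol and not by position. For each gene the 250 bases before the start that lies farthest upstream in the table are given 5′ to 3′ in the direction of transcription, with matches to the searched motifs in capitals. The first is on the minus strand of chr1:106714291-106714540, the next on the minus strand of chr2:152831729-152831978, the one after it on the plus strand of chr3:95658471-95658720 and the last on the plus strand of chr2:128125788-128126037, all in GRCm38.p6.
Bcl2: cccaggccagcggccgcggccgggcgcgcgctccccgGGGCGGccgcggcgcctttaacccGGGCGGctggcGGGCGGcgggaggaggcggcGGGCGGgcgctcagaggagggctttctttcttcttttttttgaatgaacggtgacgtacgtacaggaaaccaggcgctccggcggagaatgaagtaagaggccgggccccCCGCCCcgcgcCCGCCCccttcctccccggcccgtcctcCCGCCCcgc
Bcl2l1: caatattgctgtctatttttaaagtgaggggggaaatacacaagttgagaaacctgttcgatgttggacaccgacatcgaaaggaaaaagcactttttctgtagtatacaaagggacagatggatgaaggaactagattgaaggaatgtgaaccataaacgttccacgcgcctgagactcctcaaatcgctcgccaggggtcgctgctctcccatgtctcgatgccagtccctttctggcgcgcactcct
Mcl1: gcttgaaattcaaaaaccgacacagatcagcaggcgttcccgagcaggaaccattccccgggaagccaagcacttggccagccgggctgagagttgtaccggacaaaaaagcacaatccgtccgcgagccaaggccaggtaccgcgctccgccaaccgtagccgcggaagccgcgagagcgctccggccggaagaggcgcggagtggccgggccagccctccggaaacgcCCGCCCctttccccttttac
Bcl2l11: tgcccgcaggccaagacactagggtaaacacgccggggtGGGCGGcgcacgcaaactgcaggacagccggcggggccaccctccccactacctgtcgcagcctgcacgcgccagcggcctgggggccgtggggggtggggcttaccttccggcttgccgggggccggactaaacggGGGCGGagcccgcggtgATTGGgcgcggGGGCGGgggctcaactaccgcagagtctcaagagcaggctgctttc
The capitals mark GGGCGG, the GC box, and CCAAT, each on either strand. The Bcl2 stretch held 7 GC boxes, that of Bcl2l11 held 3 and 1 CCAAT, that of Mcl1 held 1 GC box, and that of Bcl2l1 held neither. Of 32851 promoters in the table, 32.7% had at least 1 GC box and 33.9% at least 1 CCAAT in their 250 bases. The share with as many GC boxes as Bcl2 or Bcl2l11 was not computed. G and C made up 74.8% of the bases at Bcl2, 72% at Bcl2l11, 64.4% at Mcl1 and 47.6% at Bcl2l1. The median over the table was 52.4%, and GC boxes are easier to find in sequence rich in G and C. CACGTG (the E-box that Myc binds with Max), TATAAA, TGACGTCA and the NF-kB motif were searched on both strands as well, and none of them stood in these windows. They were present in 6.02%, 12.4%, 1.55% and 0.14% of the promoters. None of the 6 motifs contains another. Bcl2 had 36 CpG dinucleotides in its 250 bases, Mcl1 26, Bcl2l11 24 and Bcl2l1 12, against a median of 6 over the table. At least as many CpGs as at Bcl2 were found in 2.58% of the promoters, and at least as many as at Bcl2l1 in 33.5%. The table lists 1 start for Bcl2 and for Mcl1. Bcl2l11 has 2, which lie 1537 bp apart, and the stretch before the other one held 30 CpGs, 2 GC boxes and 2 CCAAT. Bcl2l1 has 3, spread over 3239 bp, with 12, 11 and 0 CpGs before them and none of the 6 motifs.

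The 4 genes fell into a dense pair and a sparse pair. With 3 survival genes and 1 death gene, no split into equal pairs could have followed role, so the split says nothing on role. The neighbourhood of Mcl1 held 28.7 sites per 100 kb (19.4 to 41.0, 30 sites in 104.5 kb), and that of the pro-apoptotic Bcl2l11 held 16.8 (10.7 to 25.2, 23 sites in 136.8 kb). Around Bcl2l1 there were 6.62 sites per 100 kb (3.17 to 12.2, 10 sites in 151.1 kb), and around Bcl2 5.07 (2.77 to 8.501, 14 sites in 276.3 kb). The neighbourhood of Mcl1, the shortest gene of the 4 at 4.50 kb, thus had more sites than that of Bcl2, the longest at 176.3 kb. For the genes without their flanks the order was the opposite: 3 sites overlapped Mcl1 and 10 overlapped Bcl2. Mcl1 and Bcl2l11, the upper neighbours in this order, differed by a ratio of 1.71 whose interval reached from 0.959 to 3.08. Bcl2l1 and Bcl2, the lower neighbours, differed by 1.31 (0.519 to 3.16). Neither pair was separated at this number of sites, which does not show that their densities are alike. Across the gap between the pairs, the smallest ratio was that of Bcl2l11 to Bcl2l1, at 2.54 (1.16 to 5.98), and the largest that of Mcl1 to Bcl2, at 5.67 (2.91 to 11.6). Of the 6 pairs of genes, the 4 between the dense and the sparse pair had intervals that excluded a ratio of 1. These intervals were not adjusted for the number of pairs. The split itself was read from the same densities, so the intervals are no separate support for it. The separation was partly lost at other settings: with sites at most 1 kb apart joined, 2 of these 4 intervals lay above 1, both against Bcl2, and with sites above the median width 0 did. At a reach of 25 or 100 kb it was 3, and Bcl2l11 against Bcl2l1 then had intervals of 0.802 to 6.40 and 0.947 to 3.94.

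**Figure D1:**
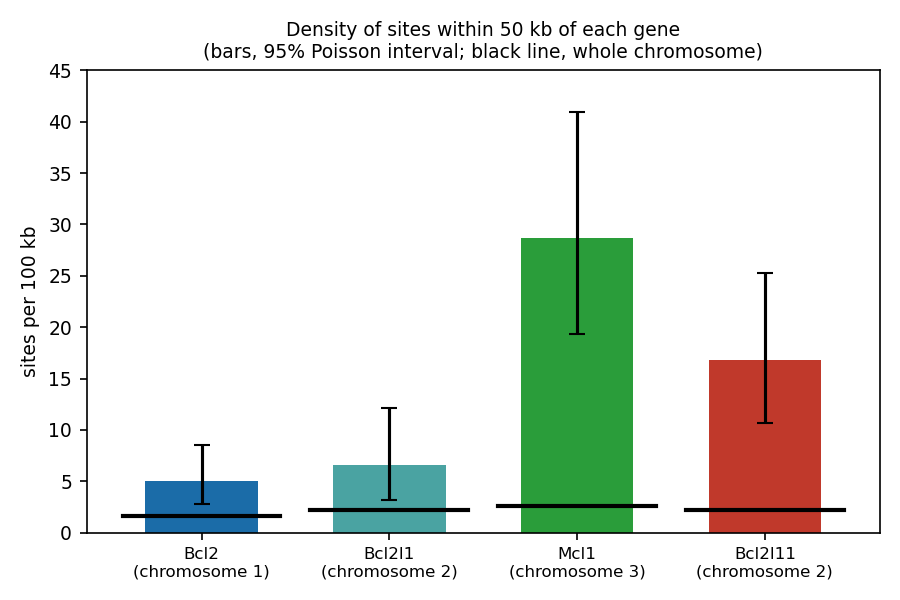
DNaseI sites per 100 kb within 50 kb of each gene (bars, with exact Poisson 95% intervals) and over the whole chromosome of that gene (black lines), from 1 library. Mcl1 stands at 28.7 and Bcl2l11 at 16.8 sites per 100 kb, above Bcl2l1 at 6.62 and Bcl2 at 5.07, and all 4 exceed their chromosomes, which lie between 1.62 and 2.57.

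Pooled by role, the survival genes Bcl2, Bcl2l1 and Mcl1 had 10.2 sites per 100 kb and the death gene Bcl2l11 16.8, a ratio of 0.604 (0.364 to 1.03). The pooled value averaged very unlike genes. Without Mcl1, Bcl2 and Bcl2l1 together had 5.61 sites per 100 kb and the ratio to Bcl2l11 was 0.334 (0.181 to 0.619). With 3 genes of one role and 1 of the other, role cannot be told apart from the features of the single genes.

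All 4 neighbourhoods were denser than the chromosomes they lie on. Chromosome 3, which carries Mcl1, had 2.57 sites per 100 kb over its length, so that Mcl1 stood at 11.2 times this value (7.55 to 16.0). Bcl2l11 stood at 7.46 times (4.73 to 11.2) the 2.26 sites per 100 kb of chromosome 2. Bcl2l1, on the same chromosome, stood at 2.94 times (1.41 to 5.40), and Bcl2 at 3.13 times (1.71 to 5.24) the 1.62 of chromosome 1. Most of a chromosome is far from any gene start, and a whole chromosome is therefore a low standard for a window that holds one. These ratios also do not separate a gene from the region around it.

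A window of 1 length, 50 kb to either side of the start, removed the difference in window length. On the gene side it still ran past the end of Mcl1 and Bcl2l11 and stayed within Bcl2 and Bcl2l1. It held 30 sites at Mcl1 (20.2 to 42.8), 19 at Bcl2l11 (11.4 to 29.7), 7 at Bcl2 (2.81 to 14.4) and 5 at Bcl2l1 (1.62 to 11.7). For scale, the autosomes were cut into 24035 windows of 100 kb on a fixed grid, of which 56.6% held no site. At least as many sites as around the Mcl1 start stood in 0.0166% of these windows (4 of them), and as many as around Bcl2l11 in 0.599%. For Bcl2 the share was 12.3% and for Bcl2l1 18.8%. Among the windows with any site, the shares were 0.0383% for Mcl1, 1.38% for Bcl2l11, 28.4% for Bcl2 and 43.4% for Bcl2l1. A window centred on a chosen start is not placed like a grid. The grid window with the Mcl1 start, 95.4 to 95.5 Mb, held 28 sites, which was the highest count of any on chromosome 3. The one with the Bcl2l11 start held 19, against a highest count of 24 on chromosome 2, and those with the starts of Bcl2 and Bcl2l1 held 6 and 4. The grid windows on either side held 9 and 10 sites at Mcl1, 6 and 5 at Bcl2l11, and 2 and 0 at Bcl2. At Bcl2l1 they held 7 and 6, both more than the window with the start. Other genes share these windows and were not taken out.

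**Figure D2:**
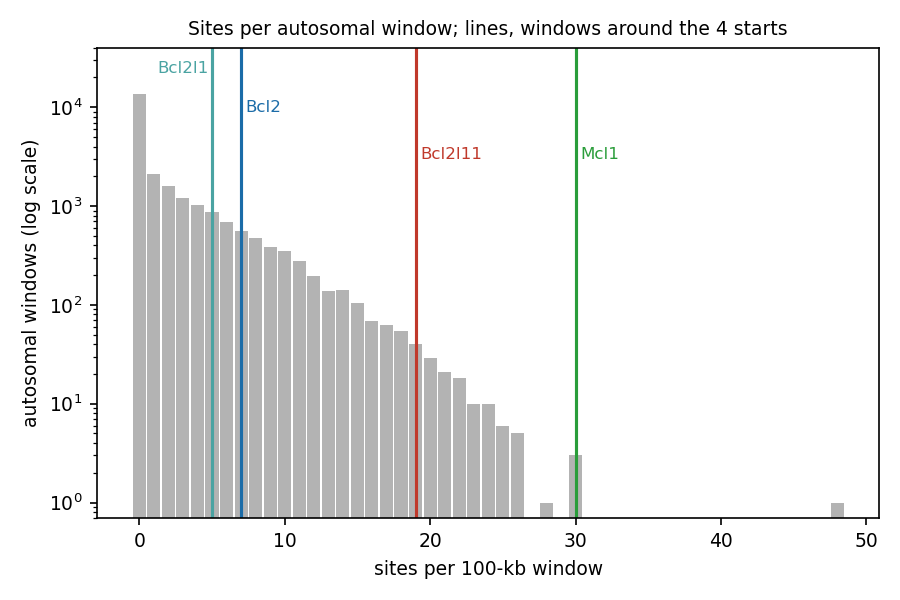
Number of autosomal 100-kb windows (log scale) by the number of DNaseI sites they hold, with coloured lines at the counts within 50 kb of the 4 starts. The lines for Bcl2l1 (5 sites) and Bcl2 (7) lie above the upper quartile of 3 sites, and those for Bcl2l11 (19) and Mcl1 (30) lie far out in the tail.

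At Bcl2, which keeps mature lymphocytes alive and is named for B cell lymphoma, the sites stood in separate groups near both ends of a long gene. The mm9 position is chr1:108434700-108611000 on the minus strand, so the start is at the higher coordinate. No site covered the start position. It fell in a gap of 316 bp between a site of 841 bp upstream (chr1:108611164-108612004, 164 bp away) and a site of 802 bp inside the gene (chr1:108610046-108610847, 153 bp away). A further site of 889 bp (chr1:108608616-108609504) began 1496 bp into the gene. With sites at most 1 kb apart joined, these 3 formed 1 region of 3389 bp over the start. The position of the start is known here only to the rounding of the gene positions, 100 bp, and the Bcl2 interval is 186 bp longer than the gene in the RefSeq table. If all of this excess lay at the start, the start would fall inside the site of 802 bp, so whether the promoter itself was covered was not settled.

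Farther into Bcl2, a site of 432 bp and one of 249 bp, the least width in the list, stood 26.0 and 18.5 kb from the start. Then followed 116.4 kb of the gene without a site (chr1:108468159-108584551), the longest empty stretch in any of the 4 neighbourhoods. The Bcl2 window was also the longest, at 276.3 kb, and that of Mcl1, at 104.5 kb, could not hold such a stretch. Of the autosomal grid windows of 100 kb, 56.6% held no site. Beyond the empty stretch 6 sites stood between 142.8 and 169.0 kb from the start, near the far end of the gene. They were 823, 1246, 325, 852, 1063 and 733 bp wide in the order of transcription. The gene thus held 10 of the 14 sites, or 5.67 per 100 kb (2.72 to 10.4). Upstream lay 3 sites, of which the farthest, 1838 bp wide and 44.2 kb from the start (chr1:108655161-108656998), was the widest at Bcl2. The only site beyond the far end was 696 bp wide and 25.9 kb away. In the RefSeq table Kdsr is the next protein-coding gene on the side of the start and Phlpp1 on the other. The list alone does not say to which gene a flanking site belongs.

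**Figure D3:**
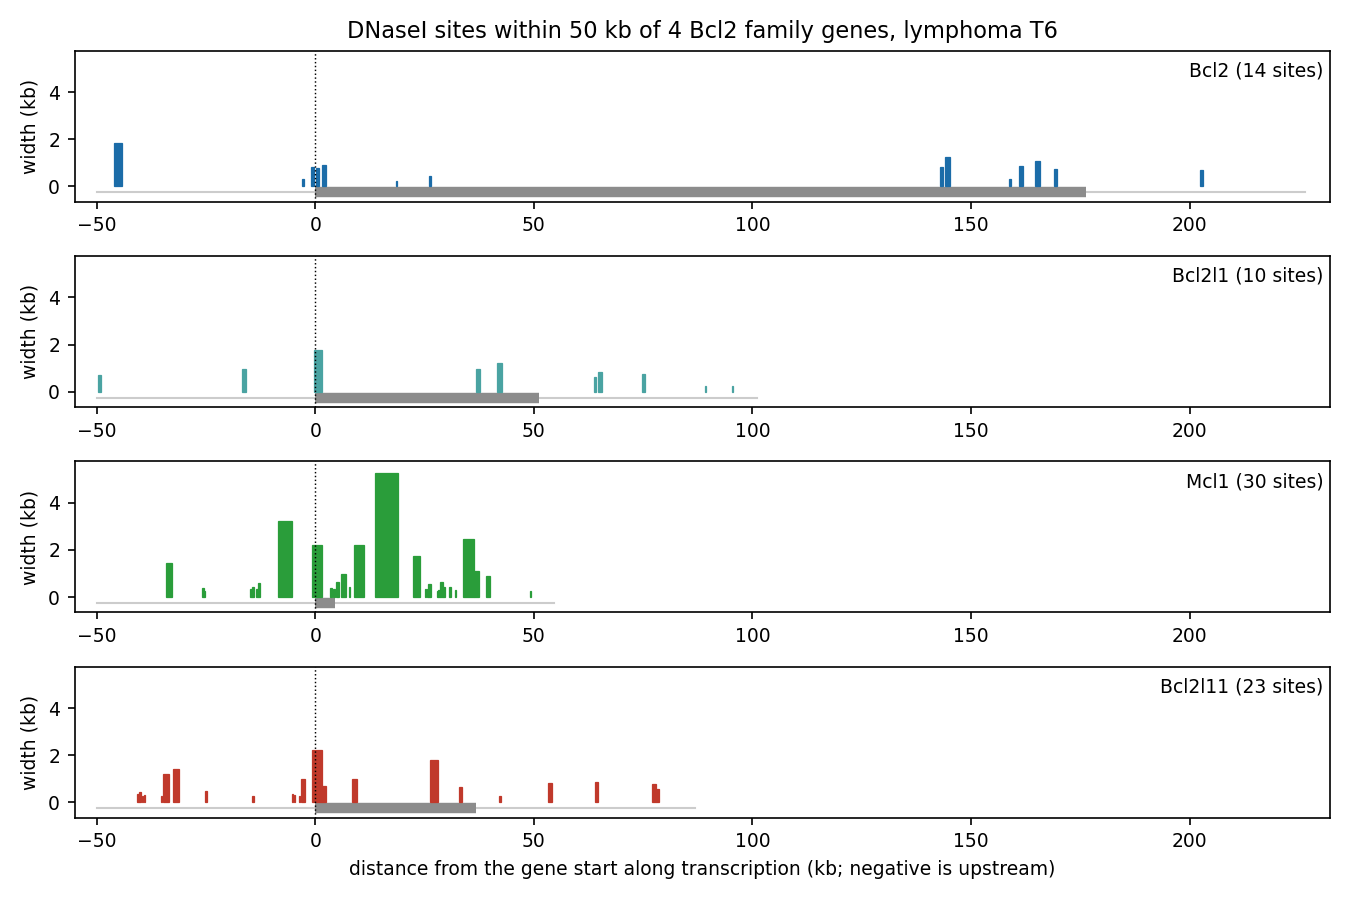
DNaseI sites within 50 kb of each gene, drawn by distance from the gene start along transcription (kb) with the width of each site (kb) as both the extent and the height of its bar. Grey boxes are the genes and thin lines the 50-kb flanks. Mcl1 is filled on both sides with sites up to 5248 bp wide. Bcl2, which has the longest window, has a stretch of 116.4 kb without a site, longer than the whole Mcl1 window of 104.5 kb.

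At Bcl2l1, whose product Bcl-xL guards mitochondria in many tissues, a single wide site covered the start and stood alone. The gene is on the minus strand of chr2:152606400-152657500. The site was 1790 bp wide (chr2:152656032-152657821), and reached 321 bp upstream of the start and 1468 bp into the gene. It was the widest of the 10 sites, and 6.48% of all sites in the list were as wide or wider. The nearest other site upstream was 983 bp wide and 15.8 kb away. Inside the gene the nearest was 951 bp wide and 36.8 kb away, and a further one of 1240 bp stood at 41.6 kb. The 3 starts of the RefSeq table spread over more than the width of this site, so it could not hold all of them, and the promoter shown above was not placed within it. Within 10 kb of the start there was thus 1 site at Bcl2l1, against 4 at Bcl2, 7 at Bcl2l11 and 8 at Mcl1. Beyond the far end lay 5 sites, from 12.6 to 44.2 kb past it, of 643, 837, 761, 263 and 264 bp in that order. The RefSeq table gives Bcl2l1 a length of 75072 bp, more than the 51101 bp used here, so that some of the sites counted as flanking may lie within the longest model of the gene. On that side the RefSeq table places Cox4i2, which overlaps the longer Bcl2l1 model of the table, and then Id1, and on the side of the start Tpx2.

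At Mcl1, whose protein is made and degraded quickly, sites of all widths crowded around a short gene. The gene is on the plus strand of chr3:95462500-95467000. A site of 2206 bp covered the start (chr3:95461776-95463981), from 724 bp before it to 1481 bp inside the gene. Another 2 sites, of 394 and 361 bp, overlapped the rest of the gene, 3.47 and 4.07 kb from the start. The upstream side held 8 sites, or 16.0 per 100 kb (6.91 to 31.5). The nearest of them was 3226 bp wide (chr3:95454044-95457269), ended 5.23 kb before the start and ranked 238th in width among all sites. The side past the gene held 19 sites, or 38.0 per 100 kb (22.9 to 59.3), whose interval overlapped that of the upstream side.

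The widest site of all 77 lay downstream of Mcl1. It spanned 5248 bp (chr3:95476095-95481342), began 9.10 kb past the end of the gene and 13.6 kb from its start, and was the 16th widest in the whole list. On the same side stood sites of 2190 bp (4.42 kb past the gene), 1734 bp (17.8 kb) and 2470 bp (29.3 kb). Together with the sites over the start and 5.23 kb before it, Mcl1 had 6 of the 10 members wider than 1500 bp. These were 20% of its 30 sites (7.71 to 38.6%), an interval that included the 11.4% of the whole list. All 30 sites belonged to 1 cluster, joined at gaps of at most 12.5 kb, that ran for 83.5 kb (chr3:95428374-95511880). Sites took up 35.3% of its length, and 39 of the 656 clusters of 10 or more sites in the list, itself included, were covered to that share or more. In number of sites, 23 clusters, again with this one, had 30 or more. The table gives Mcl1 6236 bp against the 4501 bp used here, and the end at which the difference lies was not placed. In the RefSeq table Ensa is the next protein-coding gene upstream and Adamtsl4 the next downstream.

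At Bcl2l11, the gene of the death protein Bim, most sites stood upstream of the start. The gene is on the plus strand of chr2:127951700-127988500. A site of 2239 bp covered the start (chr2:127951018-127953256), from 682 bp before it to 1556 bp inside, and a site of 696 bp followed 1671 bp from the start. The reach into the gene was close to the 1537 bp between both starts in the RefSeq table, and the rounding of the gene position did not allow placing the other start within the site. The 50 kb upstream held 13 sites, or 26.0 per 100 kb (13.8 to 44.5), against 5 within the gene (13.6 per 100 kb, 4.41 to 31.7) and 5 past its end (10 per 100 kb, 3.25 to 23.3). These intervals overlapped. The upstream sites formed a near group and a far group. The near group had 4 sites, of 986, 265, 323 and 340 bp, between 2.37 and 4.98 kb before the start.

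The far group upstream of Bcl2l11 had 7 sites between 31.1 and 40.4 kb before the start, among them those of 1400 bp (chr2:127919246-127920645) and 1211 bp (chr2:127916973-127918183). A site of 470 bp at 24.8 kb and one of 265 bp at 14.1 kb stood between the groups. Joined at gaps of at most 12.5 kb, the upstream sites and the first 3 in the gene made a cluster of 16 sites over 50.2 kb (chr2:127910989-127961179). Sites took up 21.6% of it, close to the median of 21.7% over the 656 clusters, of which 190 had 16 or more sites. The other 7 sites ran from 26.4 to 78.0 kb after the start, beginning with one of 1780 bp inside the gene (chr2:127978058-127979837). In the RefSeq table Acoxl overlaps the upstream end of Bcl2l11, so the sites before the start lie on the side of that gene, which was not separated from Bcl2l11 here.

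**Figure D4:**
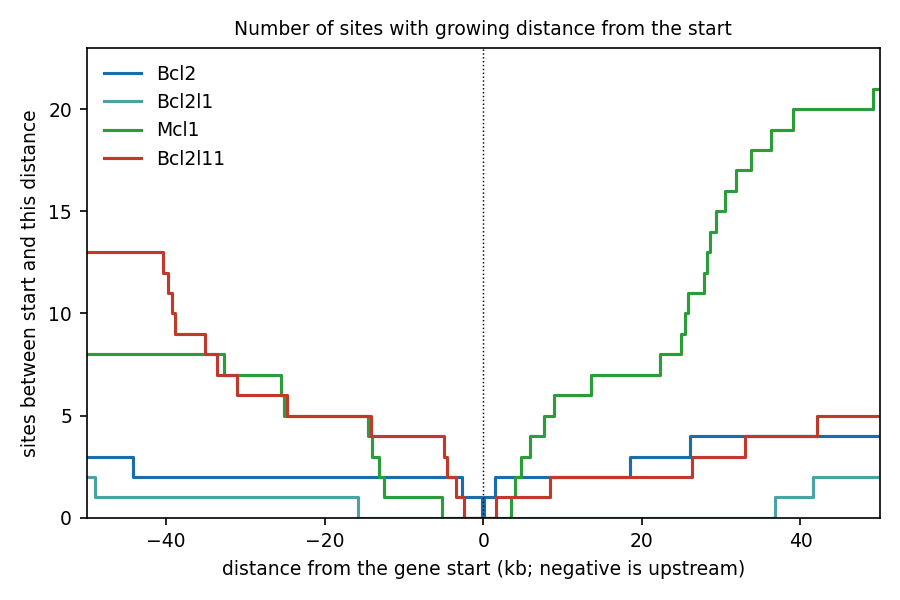
Number of DNaseI sites between the start of each gene and a given distance (kb, negative upstream), up to 50 kb, with a site that covers the start left out. Bcl2l11 gains 13 sites upstream and 5 on the side of the gene, Mcl1 gains 8 and 21, and Bcl2 and Bcl2l1 gain 3 and 4 and 2 and 2.

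Measured from the start positions used here, the sites that covered a start were alike in width and placement at Mcl1, Bcl2l11 and Bcl2l1. They were 2206, 2239 and 1790 bp wide, each among the widest 6.48% of the list. Each reached farther into the gene than upstream of that position. Bcl2l11 and Bcl2l1 have other listed starts, and the later model of Mcl1 is longer than the interval used. Placement relative to other starts was not measured and may differ. Joined at 1 kb, the region at the Bcl2l11 start was 3049 bp and that at Bcl2 3389 bp, while those at Mcl1 and Bcl2l1 stayed single sites.

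In width the 4 neighbourhoods overlapped broadly. The median width was 812.5 bp at Bcl2 (325 to 1063), 799 bp at Bcl2l1 (264 to 1240), 587 bp at Bcl2l11 (323 to 858) and 432.5 bp at Mcl1 (361 to 888), against 663 bp over the whole list (658 to 668). Sites above 663 bp numbered 10 at Bcl2, 10 at Mcl1, 10 at Bcl2l11 and 7 at Bcl2l1. Sites of 663 bp or less numbered 4, 20, 13 and 3 in the same order. Per 100 kb, the wider sites came to 9.57 at Mcl1 (4.59 to 17.6), 7.31 at Bcl2l11 (3.51 to 13.4), 4.63 at Bcl2l1 (1.86 to 9.55) and 3.62 at Bcl2 (1.74 to 6.66), with overlapping intervals. In the windows of 1 length around the starts, the sites wider than 663 bp numbered 10 at Mcl1, 7 at Bcl2l11, 5 at Bcl2l1 and 4 at Bcl2. Narrow sites of under 400 bp were 40% at Mcl1 (12 of 30, 22.7 to 59.4%) and 39.1% at Bcl2l11 (9 of 23, 19.7 to 61.5%). They were 21.4% at Bcl2 (3 of 14, 4.66 to 50.8%) and 20% at Bcl2l1 (2 of 10, 2.52 to 55.6%), against 30.5% over the list. All of these intervals overlapped and included the value of the list. By covered bases the order of the genes was that of the site density: 28.2% of the Mcl1 neighbourhood lay in sites, 12.2% of that of Bcl2l11, 5.59% of that of Bcl2l1 and 4.02% of that of Bcl2. The autosomes as a whole were covered to 1.77%.

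**Figure D5:**
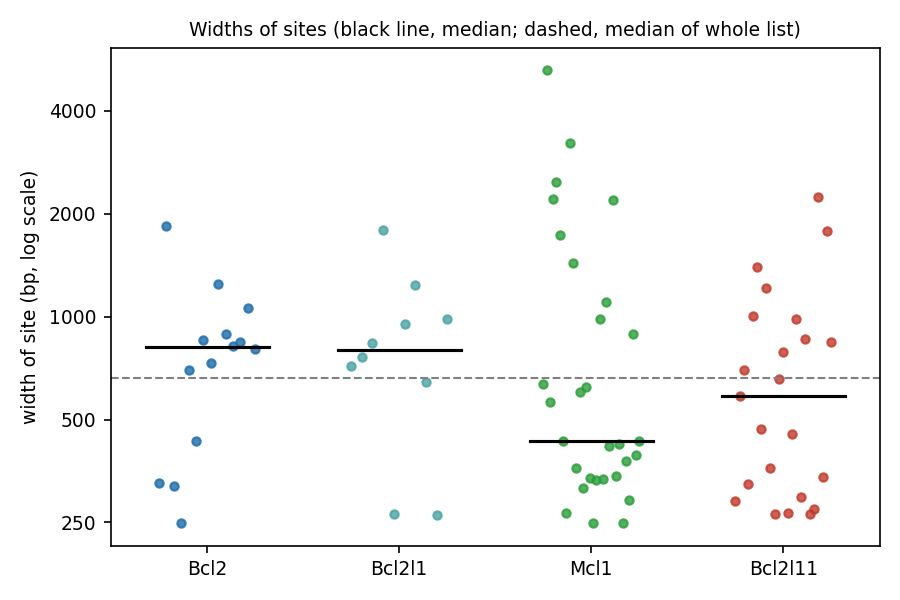
Width of every DNaseI site within 50 kb of the 4 genes (points, bp, log scale), with the median of each gene (black line) and of the whole list (dashed line, 663 bp). The points of all genes overlap, and Mcl1 has both the widest site (5248 bp) and the lowest median (432.5 bp).

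Sites at Mcl1 and Bcl2l11 often came in strings separated by very short gaps. Gaps of under 200 bp were 9 of the 29 between neighbouring sites at Mcl1 (31.0%, 15.3 to 50.8%) and 7 of 22 at Bcl2l11 (31.8%, 13.9 to 54.9%). At Bcl2 there were 0 of 13 (up to 24.7%) and at Bcl2l1 0 of 9 (up to 33.6%). Over the list such gaps were 10.9%, and within clusters of 10 or more sites 14.6%. The Bcl2l11 interval included the cluster value, and those of Bcl2 and Bcl2l1 included both values. The limit of 200 bp was chosen after the gaps were seen. The shortest gap was 52 bp at Mcl1, 69 bp at Bcl2l11, 241 bp at Bcl2 and 396 bp at Bcl2l1. An example at Mcl1 is the run of sites of 249, 291, 636 and 424 bp between 27.8 and 29.3 kb from the start (chr3:95490339-95492238). With sites at most 1 kb apart joined, the 30 sites at Mcl1 became 12, the 23 at Bcl2l11 became 14, the 14 at Bcl2 became 11 and the 10 at Bcl2l1 became 9. Joined in this way, Mcl1 had 11.5 regions per 100 kb (5.93 to 20.1) and Bcl2l11 10.2 (5.595 to 17.2), against 5.96 at Bcl2l1 (2.72 to 11.3) and 3.98 at Bcl2 (1.99 to 7.12). Whether the strings are separate elements or 1 region that the site caller divided was not tested.

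The edge of the 50-kb reach cut through no string of sites. The outermost sites inside lay 44.2 kb upstream and 25.9 kb downstream of Bcl2, and the nearest outside lay 81.6 and 112.4 kb away. At Bcl2l1 the outermost sites were at 49.0 and 44.2 kb and the next at 82.6 and 83.4 kb. At Mcl1 the outermost were at 32.7 and 44.6 kb and the next at 69.3 and 59.1 kb. At Bcl2l11 the outermost were at 40.4 and 41.2 kb and the next at 64.1 and 109.8 kb.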

How the data were processed

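Reads were handled with BWA 0.6.2 and SAMtools on mm9, per the submitters' processing notes. How sites were called, and whether the input was used, is not given in the sources used here. Each line of the deposited list is a chromosome, a start and an end, with no signal, count or p-value, so width depends on an unknown threshold and depth. Starts were counted from 0 in the file and are given here from 1. The 4 genes, their mm9 positions and the reach of 50 kb were chosen with earlier results of these data known, as were the lists and tests. Gene positions are rounded to 100 bp and differ in length from the later gene models. Strands, promoters and neighbouring genes came from RefSeq tables of GRCm38.p6, whose gene coordinates were not set against the sites. The other 20 family genes planned were not analysed here, as no mm9 annotation was used. The sites named are those over or nearest the start, the widest and narrowest, and the outermost inside and nearest outside the reach; others named, and the gaps of under 200 bp and the split at the median width, were chosen after their values were seen. The scripts ran on Python 3.11.15 with scipy 1.17.1, numpy 2.4.6, matplotlib 3.10.9 and pandas 2.3.3, and were tested on simulated data.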

Additional observations from a re-analysis of the deposited data

How the results depend on the processing

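Values were recomputed 73 times: 51 lay inside the interval of the value reported (within 100 bp for distances) and 22 outside it. A reversal of direction was not scored, and densities, widths and distances have no direction to reverse. The order Mcl1, Bcl2l11, Bcl2l1, Bcl2 by sites per 100 kb was the same at every setting for the gene neighbourhoods, though the intervals separated fewer pairs of genes with joined or wider sites. Around the start, the order of Bcl2 and Bcl2l1 depended on the setting. Bcl2 had more sites at a reach of 50 kb (7 against 5) and 25 kb (5 against 2). Bcl2l1 had more at 100 kb (12 against 8) and with sites above the median width (5 against 4). With sites joined both had 5. With a reach of 100 kb, the density per 100 kb was 18.1 at Mcl1 and 10.6 at Bcl2l11, and 18.0 around the Mcl1 start. With sites above the median width alone, it was 9.57 at Mcl1 and 7.31 at Bcl2l11, and 10 and 7 around their starts. After joining sites up to 1 kb apart, it was 11.5 at Mcl1 and 10.2 at Bcl2l11, and 12.0 and 11.0 around their starts. The median width rose, by construction, to 1962 bp at Mcl1 and 996.5 bp at Bcl2l11 with the wider sites, and to 2769 and 1203.5 bp with sites joined. The ratio of the survival genes to Bcl2l11 was 0.334 without Mcl1 and between 0.588 and 0.751 at the other settings, where each interval included 1. The nearest site to the Bcl2 start was at 0 bp with sites joined and, in an alternative added after seeing the data, with the start moved by the 186 bp by which the interval exceeds the gene in the table. By midpoint, the nearest site was 553.5 bp from the start at Bcl2, 573.5 bp at Bcl2l1, 378.5 bp at Mcl1 and 437 bp at Bcl2l11. No paired analysis was possible because there was 1 library and no test. Without signal per site, a stricter threshold could not be tried.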
